A study of Mus musculus with 23 samples.

Results

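The genes described here are the nuclear genes for oxidative phosphorylation: 86 rows of the 54838 in the gene count table, under 85 symbols. They are the protein-coding genes whose symbols begin with Nduf, Cox4 to Cox8, Uqcr or Atp5 in the standard numbering, together with Sdha, Sdhb, Sdhc, Sdhd and Cycs. By protein they fall into complex I (35 rows), complex II (4), complex III (8), complex IV (20), complex V (18) and cytochrome c (1). Ndufa4 was placed in complex IV, of which its protein is a subunit. Cox7a2l, which codes for a factor that joins complexes III and IV, and Atp5s, whose protein is not a subunit of complex V, stayed in the set. Another 12 rows carry symbols of the same pattern but are not protein-coding, 11 of them processed pseudogenes, and were not members.

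RNA was sequenced from liver of C57BL/6J mice, a common inbred strain, in 23 libraries. EPDR1 (ependymin-related protein 1, 4 libraries), FCN2 (ficolin-2, a complement lectin, 4 libraries) and FSTL3 (follistatin-like 3, an activin-binding protein, 4 libraries) belonged to batch 2, whose vehicle group had 4 libraries. LBP (lipopolysaccharide-binding protein, 3 libraries, replicates 2, 3 and 4) belonged to batch 1, whose vehicle group had 4 libraries as well. Each protein was given as 3 injections of 1 µg per g of body weight at intervals of 1 day, and the labels name no engineered allele. Samples of a group carry replicate numbers, but nothing states that they are different animals. The p-values therefore reflect the variation between these samples, some of which may be technical.

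Oxidative phosphorylation is the last stage of respiration. Complexes I and II take electrons from NADH and succinate, complex III passes them to cytochrome c, and complex IV hands them to oxygen. Complexes I, III and IV pump protons across the inner mitochondrial membrane as they do so, and complex V, the ATP synthase, lets the protons flow back to make ATP. Most subunits are encoded in the nucleus and the remaining few in the mitochondrial genome. Hepatocytes, which run the urea cycle, gluconeogenesis and fatty acid oxidation, are rich in mitochondria.

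A member was called where edgeR's quasi-likelihood test gave a Benjamini-Hochberg adjusted p under 0.05 over all 11969 genes tested. Levels are in CPM (counts scaled to a common library size by TMM), given in the order of the replicate numbers, and differences are log2 fold changes ± SE. That SE was worked back from the test, as the absolute log2 fold change over the square root of its F statistic. Of the 86 rows, 76 held enough reads to be tested. The remaining 10 were Cox4i2, Cox6a2, Cox6b2, Cox7a1, Cox7b2, Cox8b, Cox8c, Ndufa4l2, Atp5g2 and a duplicate row for Atp5o (ENSMUSG00000116933). Their totals over the 23 libraries ran from 0 counts for Cox7b2, Cox8c and the Atp5o duplicate to 122 counts for Cox7a1.

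Total counts per library ran from 773499 to 21892416. Albumin, the main plasma protein made by hepatocytes, took 5.26% to 8.36% of the counts in 22 libraries and 0.211% in LBP replicate 2. In that library the summed level of 10 hepatocyte markers was 35400 CPM, against 87400 to 124000 CPM elsewhere. Marker sums for Kupffer cells (1260 CPM), pancreatic acinar cells (1780 CPM) and erythroid cells (2730 CPM) were above every other library. So were the low sums for B cells (5.67 CPM) and T cells (6.8 CPM). FSTL3 libraries stood apart as well. Protein-coding genes of the mitochondrial genome took 1.97% to 2.13% of their counts, against 7.36% to 11.8% in their batch's vehicle. Nearly all of those counts came from 7 of its 13 protein-coding genes, as the rest had at most 3.4 CPM in any library. The genes of that genome that code for no protein went the opposite way, at 5.07% to 10.1% in FSTL3 libraries against 0.817% to 1.56% in that vehicle. In FSTL3 libraries 6 markers of sinusoidal endothelium summed to 449 to 544 CPM, against 152 to 188 CPM in that vehicle, while neutrophil markers summed to 0.174 to 0.667 CPM against 2.74 to 16.6 CPM. Sums for Kupffer cells (130 to 143 against 169 to 449 CPM) and pancreatic acinar cells (5.59 to 11.8 against 17 to 38.6 CPM) also lay wholly below that vehicle. So did those for adipocytes (5.21 to 8.75 against 9.97 to 20.1 CPM) and skeletal muscle (0.271 to 0.956 against 1.09 to 5.4 CPM). Sums for hepatocytes, stellate cells, erythroid cells, B cells and T cells overlapped. The part of any of these in the results below was not tested. All libraries shared one estimate of the spread, so most counts below come in both forms, the second leaving LBP replicate 2 out.

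Regulatory sequence was available for 67 of the 85 symbols from RefSeq (build GRCm38.p6), as the 250 bases upstream of the first listed transcription start. Printed below are the windows of Cycs, Ndufs4, Ndufv2 and Ndufa8, 4 genes that were each called in at least 1 comparison below, each read 5′ to 3′ on the strand of the gene. Capitals mark letters matching, on either strand, a motif of NRF1 (GCGC, any 2 bases and GCGC, or else GCATGCGC), ETS factors (CCGGAAG), YY1 (AAGATGGCG), estrogen-related receptors (AAGGTCA), CREB (TGACGTCA) or Sp1 (GGGCGGG). NRF1, ETS factors (among them GABP), YY1, the estrogen-related receptors, CREB and Sp1 are all known to bind promoters of respiratory genes. The second form of the NRF1 motif and the CREB motif were added after the windows had been read.
Cycs: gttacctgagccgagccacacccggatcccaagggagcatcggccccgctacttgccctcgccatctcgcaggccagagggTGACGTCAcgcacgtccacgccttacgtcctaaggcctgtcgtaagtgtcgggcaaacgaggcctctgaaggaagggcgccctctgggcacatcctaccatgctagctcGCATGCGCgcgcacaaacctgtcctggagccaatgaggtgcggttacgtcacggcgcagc
Ndufs4: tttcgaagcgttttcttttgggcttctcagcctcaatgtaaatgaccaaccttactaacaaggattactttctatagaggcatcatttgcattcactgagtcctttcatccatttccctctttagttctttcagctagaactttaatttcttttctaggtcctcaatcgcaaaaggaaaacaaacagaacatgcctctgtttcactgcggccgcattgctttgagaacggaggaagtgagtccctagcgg
Ndufv2: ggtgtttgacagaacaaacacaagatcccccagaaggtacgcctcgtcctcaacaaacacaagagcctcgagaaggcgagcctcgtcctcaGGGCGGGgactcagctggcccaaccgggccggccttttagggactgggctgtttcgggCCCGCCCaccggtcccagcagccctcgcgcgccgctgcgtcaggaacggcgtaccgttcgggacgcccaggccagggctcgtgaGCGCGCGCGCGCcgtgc
Ndufa8: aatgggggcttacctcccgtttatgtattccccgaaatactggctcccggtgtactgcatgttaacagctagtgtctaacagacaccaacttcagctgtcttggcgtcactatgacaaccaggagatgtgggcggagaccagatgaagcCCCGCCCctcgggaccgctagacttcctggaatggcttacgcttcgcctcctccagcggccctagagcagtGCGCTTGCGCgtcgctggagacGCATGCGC

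These windows lie at chr6:50566570-50566819 for Cycs, chr13:114388095-114388344 for Ndufs4, chr17:66101560-66101809 for Ndufv2 and chr2:36049339-36049588 for Ndufa8, all on the minus strand. The annotation behind the counts starts 2 of these genes further upstream than RefSeq does, so that 164 bases of the Ndufs4 window and 68 of the Ndufa8 window lie inside the gene as counted. Cycs held 1 match to the second NRF1 form and 1 to CREB. Ndufv2 held 2 overlapping matches to the first NRF1 form and 2 to Sp1, and Ndufa8 held 1 match to each NRF1 form and 1 to Sp1. No listed motif was found in the window of Ndufs4, whose GC content was 42% against 58% to 68% in the other 3.

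Over the whole set, the first NRF1 form was found in 13 of 67 windows (19.4%), against 5.09% of all 27025 windows. The second form was found in 9 (13.4%, against 2.32% of all windows), and the forms can overlap. ETS letters were in 11 windows (16.4% against 7.05%) and CREB letters in 5 (7.46% against 1.62%). Estrogen-related receptor letters were in 5 (7.46% against 4.05%), Sp1 letters in 19 (28.4% against 23.6%) and YY1 letters in 0 (against 0.607%). These are matches of letters, and no binding was measured.

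Many of the genes were lower after FSTL3. Against the vehicle of batch 2, 35 of the 76 tested members fell and 1 rose, where 16% of all 11969 genes fell and 23.2% rose. The median log2 fold change of the members was -0.83, against 0.06 over all genes tested. All 4 FSTL3 libraries lay below all 4 vehicle libraries for 59 members (23.8% of all genes) and above them for 1 (29.9% of all genes). Without LBP replicate 2, 62 members fell and 1 rose, where 25.4% of genes fell and 31.3% rose. The 62 were 30 of complex I, 4 of complex II, 6 of complex III, 9 of complex IV, 12 of complex V and Cycs. In a bulk tissue, fewer cells of a type and less RNA per cell cannot be told apart.

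**Figure D1:**
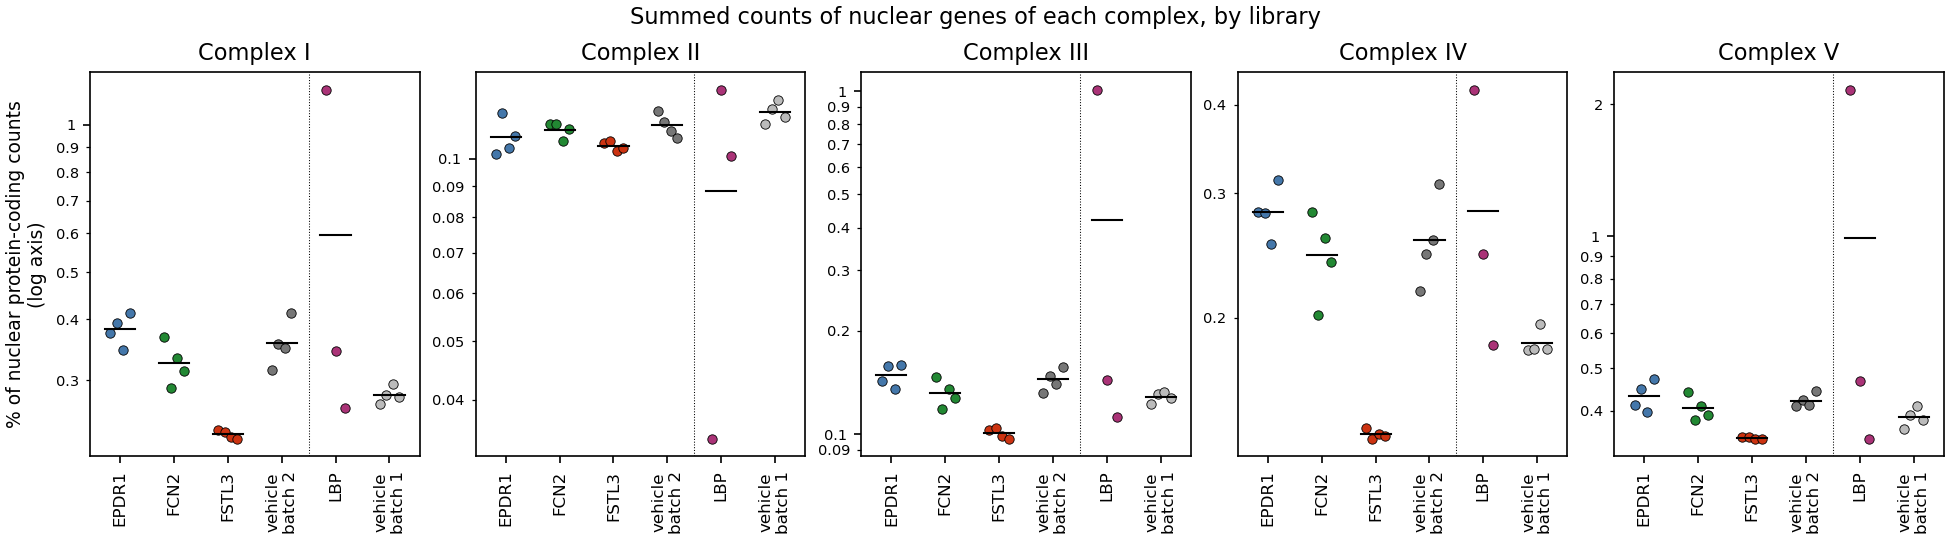
Counts of each complex as a percent of all nuclear protein-coding counts, on a log axis, in every library of the 6 groups (points), with the mean of each group (black bars) and a dotted line between batch 2 and batch 1. The 4 FSTL3 libraries lie below every vehicle library of batch 2 in all 5 complexes, and LBP replicate 2 lies above every other library in complexes I, III, IV and V and below every other in complex II.

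Summed by complex, the FSTL3 libraries gave complex IV 0.137% ± 0.00216 of nuclear protein-coding counts, against 0.258% ± 0.0381 in the vehicle of batch 2 (SD, n = 4 each). For complex I, which oxidises NADH, the share was 0.233% ± 0.00457 in FSTL3 livers against 0.358% ± 0.0407 in the vehicle. Complex III held 0.101% ± 0.00334 against 0.144% ± 0.0107. Complex V held 0.347% ± 0.00231 in FSTL3 livers against 0.422% ± 0.0161 in the vehicle, and complex II, the only complex with no subunit in the mitochondrial genome, 0.105% ± 0.00183 against 0.114% ± 0.0052. The spread among FSTL3 libraries was smaller than that among vehicle libraries in all 5 complexes.

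In complex I, 18 of 35 tested members fell in FSTL3 livers against the vehicle of batch 2 (16% of all genes fell). The median log2 fold change of the 35 was -0.84. The nuclear core subunits, which carry the flavin and the iron-sulfur clusters or the quinone site, had 3 calls among 7 (median -0.48). The accessory subunits, which surround the core and are needed for its assembly and stability, had 15 calls among 28 (median -0.88). Core and accessory genes also differ in length, with median exon lengths of 2178 and 1234 bases.

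Ndufv2 (chromosome 17, 66078638 to 66101559) codes for an iron-sulfur core subunit of the NADH-binding module. Its level was 85.9, 85.4, 92.6 and 96.1 CPM in FSTL3 livers, against 168, 170, 198 and 248 CPM in the vehicle of batch 2. The groups did not overlap, and the log2 fold change was -1.12 ± 0.15 (edgeR adjusted p = 5.07e-06). The vehicle of batch 1, at 104, 103, 102 and 108 CPM, also lay below the vehicle of batch 2 and just above the FSTL3 libraries.

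Ndufa8 (chromosome 2, 36036326 to 36049406), an accessory subunit on the intermembrane side, had 34.4, 40.6, 31.7 and 32.8 CPM in FSTL3 livers, against 78.2, 85.1, 83.9 and 105 CPM in the vehicle of batch 2. Every FSTL3 library was below every library of the other 5 groups (-1.33 ± 0.17 against the vehicle of batch 2, edgeR adjusted p = 1.55e-06). Ndufa1, an X-linked accessory subunit of the membrane arm (chromosome X, 37187588 to 37191163), had 27.2, 27.8, 29.1 and 29.4 CPM in FSTL3 livers, against 90.6, 108, 112 and 126 CPM in that vehicle. The groups were far apart and the FSTL3 libraries nearly equal (-1.94 ± 0.26, edgeR adjusted p = 3.43e-06).

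Ndufs4 (chromosome 13, 114287795 to 114388258), an accessory subunit whose human gene is mutated in Leigh syndrome, had 51.4, 54.1, 60.6 and 53.3 CPM in FSTL3 livers, against 100, 102, 118 and 122 CPM in the vehicle of batch 2 (-1.01 ± 0.16, edgeR adjusted p = 2.6e-05). Those groups did not overlap, while the vehicle of batch 1, at 53, 51.4, 62.1 and 54.2 CPM, covered the FSTL3 range almost exactly. The lowest fold change in the complex was that of Ndufs6, a small zinc-binding accessory subunit, at 22.8 ± 2.06 CPM in FSTL3 livers against 102 ± 12.7 CPM (SD, n = 4 each; -2.15 ± 0.54, edgeR adjusted p = 0.00322).

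Large core subunits of complex I did not pass the test. Ndufs1, which carries iron-sulfur clusters, had a log2 fold change of 0.08, with 139, 140, 144 and 137 CPM in FSTL3 livers against 154, 123, 135 and 119 CPM in the vehicle of batch 2. Ndufv1, the NADH-binding subunit, had -0.19. Ndufa9, an accessory subunit at the joint of the arms, fell (-0.72), with 71.7, 72, 70.9 and 61.4 CPM against 109, 121, 110 and 116 CPM and no overlap.

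Of the 4 complex II genes, edgeR called 0, and 0 had an unadjusted p under 0.05 (20.2% of all genes were lower and 27.4% higher at that level). Their log2 fold changes ran from -0.46 to -0.30. With LBP replicate 2 left out, all 4 fell (25.4% of all genes fell). Sdha, the flavoprotein that oxidises succinate, had 405, 407, 386 and 401 CPM in FSTL3 livers against 574, 506, 502 and 382 CPM in the vehicle of batch 2. One vehicle library lay below all 4 FSTL3 libraries (-0.30 ± 0.19, edgeR adjusted p = 0.223). Sdhb, the iron-sulfur subunit, had 145, 144, 155 and 146 CPM against 189, 186, 216 and 221 CPM, without overlap.

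In complex III, 3 of 8 members fell (median -0.78), where 16% of all genes fell. With the trend of each library with exon length removed, 0 of the 8 were called (median -0.03), where 12.2% of all genes fell and 14.9% rose. Uqcrq, a small subunit next to cytochrome b, had 58.6, 56.5, 53.9 and 56.3 CPM in FSTL3 livers against 198, 260, 236 and 281 CPM in the vehicle of batch 2. That is the lowest fold change of the complex (-2.11 ± 0.67, edgeR adjusted p = 0.0151). Uqcrh, the acidic hinge protein that meets cytochrome c1, fell by 1.13 on the log2 scale and Uqcrb by 0.91. The core protein Uqcrc1 (152 ± 11.4 CPM in FSTL3 livers, 142 ± 7.42 CPM in the vehicle; SD, n = 4 each) had a log2 fold change of 0.09. The Rieske iron-sulfur protein Uqcrfs1 had -0.65 ± 0.43 (edgeR adjusted p = 0.241). It was not called, but its groups did not overlap, at 143, 144, 136 and 144 CPM in FSTL3 livers against 193, 227, 212 and 259 CPM.

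In complex IV, 9 of 12 tested members fell (16% of all genes fell), with a median of -1.05. Leaving out LBP replicate 2 also gave 9 (25.4% of all genes fell). Removing the exon length trend gave 2 that fell and 1 that rose (12.2% and 14.9% of all genes). Cox6c (chromosome 15, 35925886 to 35938246), a small membrane subunit, had 108, 107, 124 and 116 CPM in FSTL3 livers, against 188, 230, 263 and 335 CPM in the vehicle of batch 2. The groups did not overlap (-1.16 ± 0.19, edgeR adjusted p = 6.21e-05). Cox6a1, the isoform of liver, had 81.7, 73.3, 78.7 and 82.1 CPM in FSTL3 livers against 154, 195, 197 and 225 CPM, again without overlap (-1.29 ± 0.20, edgeR adjusted p = 2.9e-05). Cox7b fell by 1.69, Cox6b1 by 1.25, Ndufa4 by 1.18, Cox7a2 by 0.96 and Cox5b by 0.65 on the log2 scale.

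Cox4i1, the largest nuclear subunit of complex IV, had 205, 210, 188 and 187 CPM in FSTL3 livers against 360, 442, 435 and 493 CPM in the vehicle of batch 2 (-1.13 ± 0.40, edgeR adjusted p = 0.0281). Cox5a, which sits with it on the matrix side, had 30.5, 30.5, 30.5 and 34.7 CPM against 53.3, 55.8, 64.8 and 62.1 CPM (-0.90 ± 0.18, edgeR adjusted p = 0.000401). Neither pair of groups overlapped. Cox7a2l had 27.7 ± 3.22 CPM in FSTL3 livers against 32.3 ± 1.14 CPM in the vehicle (SD, n = 4 each) and was not called (-0.22 ± 0.46). Its FSTL3 libraries still lay wholly below that vehicle.

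In complex V, 5 of 16 members fell and 1 rose (median -0.83), where 16% of all genes fell and 23.2% rose. The catalytic head genes gave small differences: Atp5b, the beta subunit, had 890 ± 24.8 CPM in FSTL3 livers against 929 ± 65.4 CPM in the vehicle of batch 2, and Atp5a1, the alpha subunit, 769 ± 18.2 CPM against 891 ± 63.8 CPM (SD, n = 4 each). Neither was called, at edgeR adjusted p = 0.852 and 0.345. The groups overlapped for Atp5b, while for Atp5a1 the FSTL3 libraries lay wholly below that vehicle. The genes that fell code for the central shaft subunit gamma (Atp5c1, -0.79), for parts of the outer stalk (Atp5j, -1.88, and Atp5h, -1.55), for the proton-carrying ring (Atp5g3, -0.93) and for the small proteolipid Atp5mpl (-1.64). Atp5j had 47.6 ± 3.83 CPM in FSTL3 livers against 175 ± 30.1 CPM in the vehicle, and Atp5g3 had 157, 166, 157 and 166 CPM against 279, 321, 295 and 339 CPM.

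Atp5l, a membrane subunit of complex V, was the member that rose: 11.5, 11.6, 11.6 and 12.8 CPM in FSTL3 livers against 2.49, 3.14, 4.98 and 5.21 CPM in the vehicle of batch 2 (1.66 ± 0.49, edgeR adjusted p = 0.00941). Its transcript shares 7.49% of its windows of 50 bases with transcripts of 640 other genes, so part of its reads are uncertain. Such sharing is common in the set: 43 of the 76 tested members share at least 1 window of 50 bases with the transcripts of other genes and 21 share over 10% of theirs. The 21 include Ndufb4 (37%), Ndufs5 (31.1%), Atp5h (23.8%), Atp5j (20.2%) and Uqcrb (19.2%), each called in a comparison here. The same doubt holds for their reads.

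**Figure D2:**
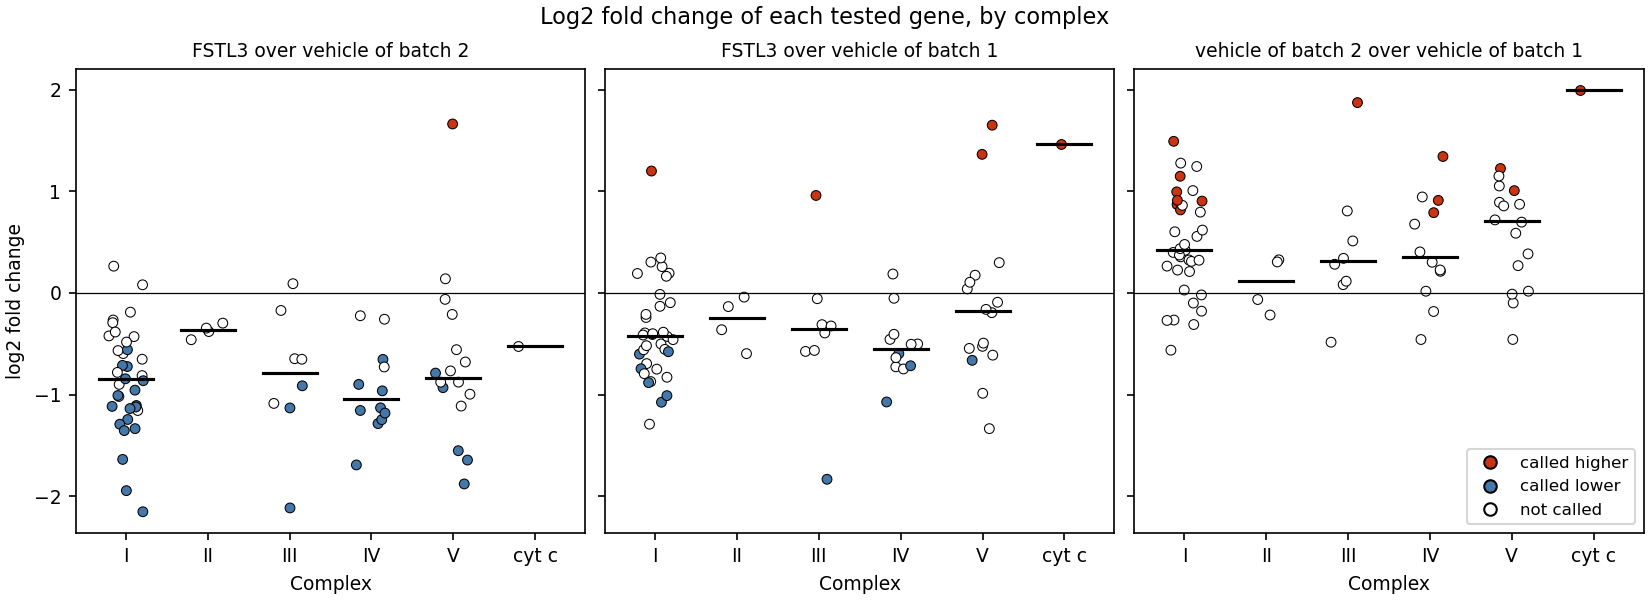
Log2 fold change of every tested member by complex (points, red where called higher, blue where called lower, open where not called) with the median of each complex (bars), for FSTL3 over the vehicle of batch 2, FSTL3 over the vehicle of batch 1, and the vehicle of batch 2 over that of batch 1. In the first panel the medians of the 5 complexes run from -1.05 in complex IV to -0.36 in complex II.

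FSTL3 was set against the other vehicle as well. These comparisons share the FSTL3 libraries, and against the vehicle of batch 1 protein and batch differ together. Here 11 of the 76 tested members fell (13.2% of all genes fell) and 5 rose (18.7% of all genes rose), with a median of -0.42. The FSTL3 libraries lay wholly below that vehicle for 46 members (23.5% of all genes) and wholly above it for 6 (27.7%). When LBP replicate 2 was left out, 47 members fell (23.4% of all genes) and 6 rose (26.5%). By complex, 6 members fell and 1 rose in complex I (median -0.43), none was called in complex II (-0.25), and 1 fell and 1 rose in complex III (-0.36). In complex IV 3 fell (-0.55), in complex V 1 fell and 2 rose (-0.18), and Cycs rose. Leaving out that library gave 23 that fell and 2 that rose in complex I, 2 that fell in complex II, 6 and 1 in complex III, 9 that fell in complex IV, and 7 and 2 in complex V.

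The members with the smallest p among those that fell were Ndufa8 (-1.01 ± 0.17), Cox6a1 (-1.07 ± 0.20), Ndufa1 (-1.07 ± 0.26), Ndufb11 (-0.88 ± 0.22) and Ndufb8 (-0.75 ± 0.20). For Ndufa8 the vehicle of batch 1 had 66.4, 67.3, 71.1 and 75.8 CPM, above all 4 FSTL3 libraries. Ndufv2 and Cox6c, which fell against the vehicle of batch 2, were not called against that of batch 1 (-0.21 ± 0.15, edgeR adjusted p = 0.313, and 0.19 ± 0.19, edgeR adjusted p = 0.5). Ndufs4 had -0.01 ± 0.16 there (edgeR adjusted p = 0.959).

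Uqcrb, a matrix-side subunit of complex III, took opposite signs against the 2 vehicles. It had 36.5, 33.1, 42.6 and 38.9 CPM in FSTL3 livers, against 46.8, 68.5, 76.8 and 93 CPM in the vehicle of batch 2 and 18, 13.7, 23.4 and 20.1 CPM in the vehicle of batch 1. Levels after FSTL3 lay between the vehicles without overlapping either (-0.91, edgeR adjusted p = 0.0114, and 0.96, edgeR adjusted p = 0.0137).

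The vehicles themselves differed. Against the vehicle of batch 1, 14 of the 76 tested members were higher in the vehicle of batch 2 (5.41% of all genes were higher) and 0 were lower (6.76% of all genes were lower), with a median of 0.40. The vehicle of batch 2 lay wholly above that of batch 1 for 47 members (15.9% of all genes) and wholly below for 4 (15.8%). Leaving out LBP replicate 2, 42 members were higher (14.9% of all genes) and 3 lower (15.4%). Of the 14, 7 were in complex I, 1 in complex III, 3 in complex IV, 2 in complex V and 1 was Cycs. At an unadjusted p under 0.05, 26 members were higher (12.3% of all genes) and 0 lower (14.2%).

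Cox6c showed it in every library, with 188, 230, 263 and 335 CPM in the vehicle of batch 2 against 89.4, 97, 108 and 106 CPM in the vehicle of batch 1 (1.34 ± 0.20, edgeR adjusted p = 0.000265). Uqcrb was higher by 1.87 ± 0.29 (edgeR adjusted p = 0.00038), Ndufb4, an accessory subunit of the membrane arm, by 1.49 ± 0.34 (edgeR adjusted p = 0.00643) and Ndufs4 by 0.99 ± 0.16 (edgeR adjusted p = 0.000468). The vehicle comparison holds no injected protein, and batch and any difference in handling cannot be told apart in it.

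**Figure D3:**
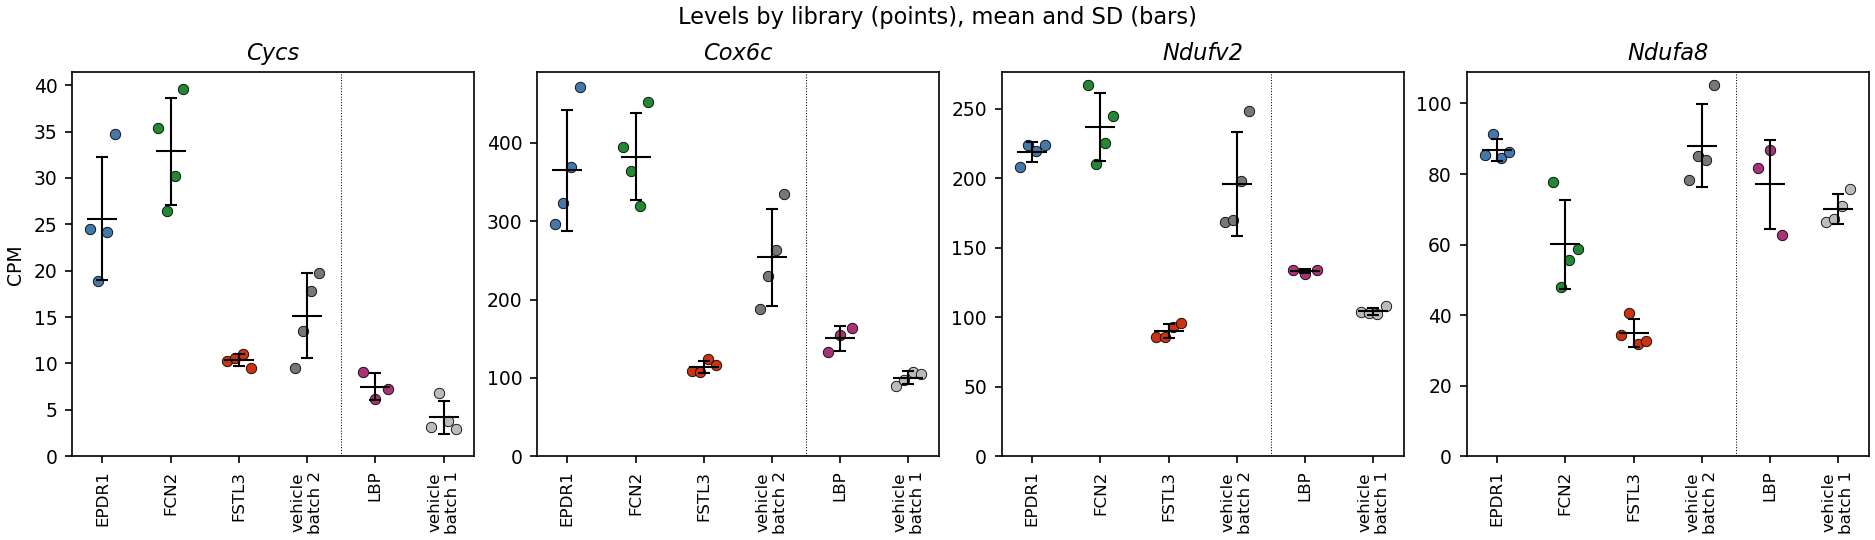
Level in CPM of Cycs, Cox6c, Ndufv2 and Ndufa8 in every library of the 6 groups (points), with the mean and SD of each group (bars) and a dotted line between batch 2 and batch 1. For Cycs, Cox6c and Ndufv2 every vehicle library of batch 2 lies above every vehicle library of batch 1, and for Ndufa8 the FSTL3 libraries lie below all others.

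Cycs (chromosome 6, 50562563 to 50566538) codes for cytochrome c, the mobile carrier between complexes III and IV. It was the only member called after FCN2 against the vehicle of batch 2 (0.159% of all genes rose and 0.652% fell). Its level was 35.4, 26.4, 30.2 and 39.5 CPM in FCN2 livers, against 9.46, 13.5, 17.9 and 19.8 CPM in that vehicle, without overlap (1.15 ± 0.22, edgeR adjusted p = 0.0236). EPDR1 livers had 24.5, 18.9, 24.2 and 34.8 CPM, overlapping the vehicle and not called (0.78 ± 0.22, edgeR adjusted p = 0.958). Levels in FSTL3 livers were 10.3, 10.6, 11 and 9.5 CPM and in LBP livers 9.06, 6.18 and 7.26 CPM.

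The vehicle of batch 1 had the lowest Cycs levels, at 3.18, 6.85, 3.79 and 2.92 CPM. Against it Cycs was higher in FSTL3 livers (1.47 ± 0.27, edgeR adjusted p = 0.000185) and in the vehicle of batch 2 (1.99 ± 0.27, edgeR adjusted p = 0.000135), and not called after LBP (0.94 ± 0.32, edgeR adjusted p = 0.0723). In FSTL3 livers it did not pass against the vehicle of batch 2 (-0.52 ± 0.22, edgeR adjusted p = 0.065), and without LBP replicate 2 it did (-0.51, edgeR adjusted p = 0.0274). Of its windows of 50 bases, 28.5% occur in transcripts of 76 other genes, 10 of them pseudogenes, so part of its reads are uncertain. With the GC trend of each library removed the FCN2 call was lost (0.81), and 0% of all genes were called.

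The median of the members after FCN2 was -0.01, and at an unadjusted p under 0.05 edgeR gave 5 members higher (7.69% of all genes) and 4 lower (9.6%). FCN2 libraries lay wholly above the vehicle for 8 members (9.12% of all genes) and wholly below for 7 (9.48%). Without LBP replicate 2, 10 members rose (8.81% of all genes) and 16 fell (10.1% of all genes). Those that fell included Ndufa11 (-1.26), an accessory subunit of complex I, and Cox8a (-0.73), and those that rose included Cox6c (0.59). Across genes the FCN2 fold change followed GC content, with a Spearman rho of -0.648 over 11961 genes and -0.583 over the members, given as a description, since the genes share the same libraries. With that trend removed no member was called, and 0% of all genes were.

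After EPDR1 no member passed, and 0% of all genes did. The count at an unadjusted p under 0.05 was 2, both higher (Cycs and Cox6c), where 2.37% of all genes were higher and 1.75% lower at that level, and DESeq2 also called 0. Without LBP replicate 2 that unadjusted count was 14, all higher, where 5.57% of all genes were higher and 4.73% lower. The adjusted count was still 0 for the members and for all genes. The median was 0.11. EPDR1 libraries lay wholly above the vehicle for 2 members (2.31% of all genes) and wholly below for 0 (1.91%). Sdha had 461 ± 80.6 CPM in EPDR1 livers against 491 ± 80 CPM in the vehicle of batch 2, and Atp5b 922 ± 121 CPM against 929 ± 65.4 CPM (SD, n = 4 each).

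The proteins of batch 2 were compared with each other without a vehicle. In FSTL3 livers 43 of the 76 tested members were lower than in EPDR1 livers (18% of all genes) and 1 was higher (24%), with a median of -0.94. Against FCN2 livers 34 were lower (18.4% of all genes) and 1 higher (25.9%), with a median of -0.78. Leaving out LBP replicate 2 gave 62 lower and 2 higher against EPDR1 (26.6% and 31.9% of all genes), and 55 lower and 5 higher against FCN2 (26.8% and 34% of all genes). Both comparisons rest on the same FSTL3 libraries. Cox6c was lower in both, by -1.68 ± 0.20 and -1.75 ± 0.20 on the log2 scale, and Ndufv2 by -1.28 ± 0.15 and -1.40 ± 0.15.

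Ndufs5, an accessory subunit of complex I, was the member that was higher in both, at 4.61 ± 0.473 CPM in FSTL3 livers, 2.59 ± 1.17 CPM in EPDR1 livers and 2.56 ± 0.402 CPM in FCN2 livers (SD, n = 4 each). Between FCN2 and EPDR1 edgeR and DESeq2 each called 0 members, edgeR called 0% of all genes, and 4 members were lower at an unadjusted p under 0.05 (5.34% of all genes). Without LBP replicate 2, 11 members were lower (2.26% of all genes) and 0 higher (2.47% of all genes), with Ndufa8 and Cox8a among the 11.

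**Figure D4:**
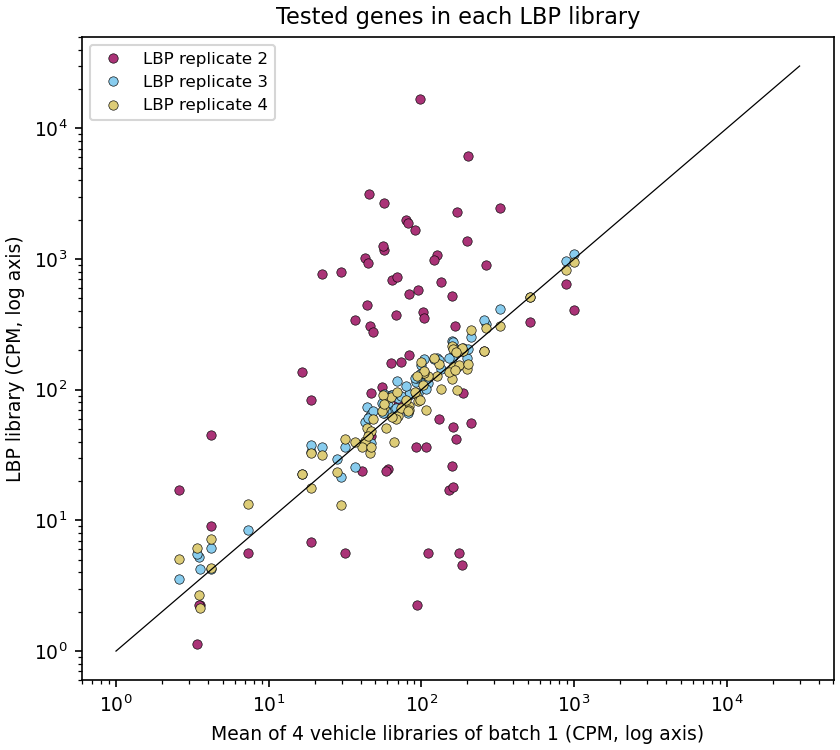
Level of each tested member in LBP replicates 2, 3 and 4 (vertical axis, CPM, log scale) against its mean in the 4 vehicle libraries of batch 1 (horizontal axis, CPM, log scale), with a line where both are equal; Ndufb6, at 0 CPM in replicate 2, has no point for that library. Replicate 2 scatters far above and below the line, up to 16777 CPM for Atp5e, while replicates 3 and 4 lie along it.

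After LBP, 35 of the 76 tested members rose against the vehicle of batch 1 and 0 fell (6.73% of all genes rose and 0.969% fell), with a median of 0.71. The LBP libraries lay wholly above the vehicle for 18 members (4.62% of all genes) and wholly below for 0 (6.23%). Those calls rested on 1 library. With LBP replicate 2 left out edgeR called 0 members (0.515% of all genes rose and 0.212% fell), and the median was 0.17. At an unadjusted p under 0.05, 21 were higher (7.47% of all genes) and 3 lower (6.53%). Replicate 2 lay above the other 22 for 41 of the 76 tested members (26.7% of all genes) and below them for 23 (38.5% of all genes).

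Atp5e, the epsilon subunit of the ATP synthase, had 16777 CPM in LBP replicate 2 and 133 and 83.1 CPM in replicates 3 and 4, against 84.8, 105, 97.4 and 102 CPM in the vehicle of batch 1. Its log2 fold change was 5.86 ± 1.05 (edgeR adjusted p = 0.00865), and 0.15 without replicate 2 (edgeR adjusted p = 0.854). Ndufs6 had 1265 CPM in replicate 2 and 66.1 and 91.7 CPM in the others, against 47, 55.9, 63.2 and 57.1 CPM in the vehicle. Other members went the opposite way in the same library: Atp5j had 2.27 CPM in replicate 2 and 123 and 127 CPM in the others, and Cox7b 18.1 CPM against 233 and 205 CPM. Members of the same complex thus differed in direction within that library.

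FSTL3 and LBP responses were also tested against each other as a difference of differences, each response taken against the vehicle of its batch. For 50 members the FSTL3 response was lower (16.7% of all genes were) and for 0 higher (14.9% of all genes were), with a median of -1.56. Leaving out that library, it was lower for 51 and higher for 1 (18.5% and 19.3% of all genes), with a median of -1.07. Cox6b1 (-2.28 ± 0.33), Ndufs4 (-1.60 ± 0.23) and Ndufv2 (-1.48 ± 0.22) had the smallest p among these.

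The fold changes of FSTL3 against the vehicle of batch 2 went with exon length over all genes, with a Spearman rho of 0.458 over 11969 genes and 0.36 over the members. The members are short, with a median exon length of 1737 bases against 4310 over all genes tested. Among genes of 501 to 1000 bases, 10 of 17 members fell, as did 50% of all genes of that length, and the medians were -0.96 and -0.91. From 1001 to 1500 bases 8 of 16 members fell, against 42.2% of all genes, with medians of -1.02 and -0.73. Of the members of 1501 to 2000 bases 5 of 12 fell (33.6% of all genes), with medians of -0.80 and -0.50.

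The 1 member of up to 500 bases, Ndufa1, fell (-1.94), where 33.9% of all genes of that class fell, with a median of -0.41. Between 2001 and 3000 bases 7 of 12 members fell, against 25.6% of all genes (medians -0.64 and -0.31), and between 3001 and 5000 bases 4 of 15, against 15% (medians -0.65 and -0.04). Above 5000 bases 0 of 3 members fell, against 4.76% of all genes (medians 0.08 and 0.44). With the trend of each library with exon length removed, 14 members fell and 2 rose (12.2% and 14.9% of all genes), with a median of -0.31.

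**Figure D5:**
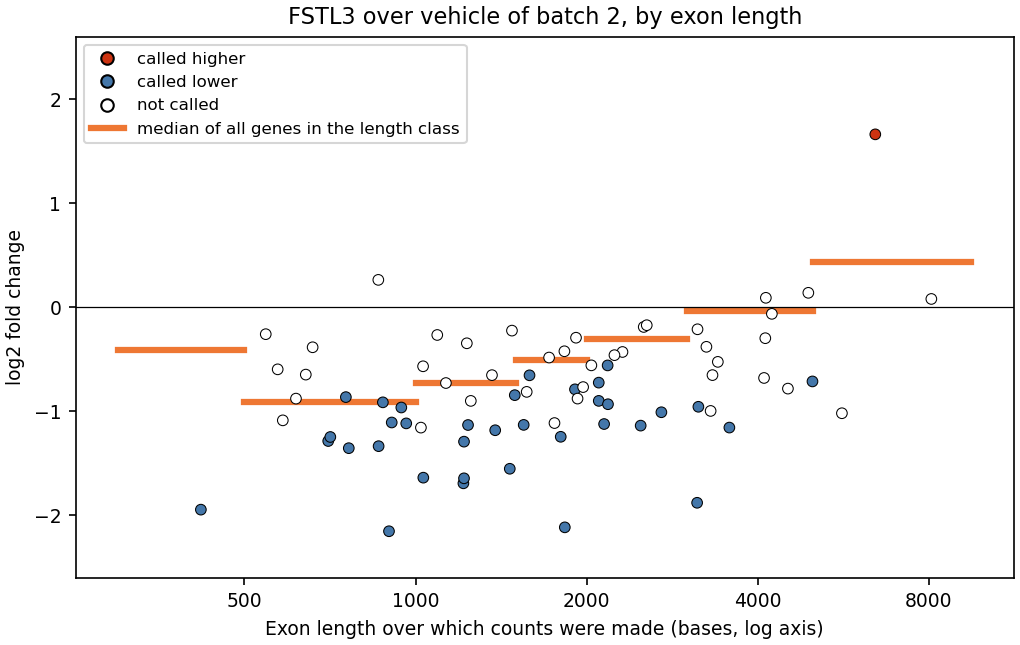
Log2 fold change of FSTL3 over the vehicle of batch 2 for each tested member (points, red where called higher, blue where called lower, open where not called) against its exon length in bases on a log axis; orange bars give the median of all genes tested in each class of exon length, the first and last of which are open. Those medians lie at -0.91 from 501 to 1000 bases and at -0.04 from 3001 to 5000 bases.

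With the trends of both GC content and exon length removed, 14 members fell and 1 rose (14.3% and 15.4% of all genes), with a median of -0.33. Of the 35 that fell before, 13 fell again. They were Ndufa1, Ndufa6, Ndufa8, Ndufb5, Ndufb8, Ndufs4, Ndufv2, Cox5a, Cox6c, Cox7b, Atp5g3, Atp5j and Atp5mpl, so 7 belong to complex I, 3 to complex IV and 3 to complex V. Cox6c had -1.01 (edgeR adjusted p = 0.000329), Ndufv2 -0.84 (edgeR adjusted p = 0.00111) and Ndufa8 -0.51 (edgeR adjusted p = 0.0201). Against the vehicle of batch 1 the same removal left 2 members that fell and 5 that rose (8.51% and 9.52% of all genes), with a median of -0.04, and Cox6a1 turned to 0.036 (edgeR adjusted p = 0.949). Between the vehicles it left 7 members higher and 0 lower (2.09% and 1.74% of all genes).

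Among isoforms, the forms known from liver carried the reads. Per kilobase of exon, the vehicle of batch 2 had 279 CPM for Cox4i1 and 0.242 for Cox4i2, the hypoxia-linked form of lung. It had 274 CPM per kilobase for Cox6a1 and 0 for the muscle form Cox6a2, and 387 for Cox6b1 against 0.145 for the testis form Cox6b2. Cox7a2 stood at 208 CPM per kilobase and the muscle form Cox7a1 at 1.75, while Cox8a stood at 143 and the muscle form Cox8b at 0.0632. For subunit c of the ATP synthase, whose genes give the same mature protein, Atp5g3 had 141 CPM per kilobase, Atp5g1 1.15 and Atp5g2 0.438. Atp5g1 shares 11.6% and Atp5g2 14.8% of its transcript windows with other genes, and Atp5g3 shares 0%, so part of the reads of Atp5g1 and Atp5g2 are uncertain. The exon lengths divided by were 4912 bases for Atp5g1, 1675 for Atp5g2 and 2181 for Atp5g3. The part of sharing and length in this gap was not tested. The muscle and testis forms were too low to test, and skeletal muscle markers summed to at most 26 CPM in any library.

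The other genes of the pathway, in lists written with earlier results of these data known, gave these counts for FSTL3 against the vehicle of batch 2, where 16% of all genes fell and 23.2% rose. Of the 13 subunits encoded in the mitochondrial genome, 7 held enough reads to be tested, and all 7 fell (median -3.30). The rest (mt-Nd3, mt-Nd4l, mt-Co2, mt-Co3, mt-Atp6 and mt-Atp8) had at most 3.4 CPM in any library, for a reason that was not tested. The fall of the 7 stood beside the higher share, given above, of that genome's genes that code for no protein. Of 45 assembly factors, which build the complexes, 18 fell and 1 rose. In the tricarboxylic acid cycle 2 of 13 fell, Suclg1 (-0.85) and Mdh2 (-1.03), and Ogdh rose (0.46). Of 4 further genes of the complexes outside the symbol rule 2 fell, Usmg5 (-3.85 ± 0.27, edgeR adjusted p = 8.36e-10) and Atpif1 (-1.20), which codes for the inhibitor of the ATP synthase and not for a subunit. With LBP replicate 2 left out, 7 of the 7 mitochondrial subunits fell, 25 assembly factors fell and 3 rose, 8 genes of the cycle fell and 2 rose, and all 4 further genes fell (25.4% of all genes fell and 31.3% rose). Against the vehicle of batch 1, 6 of the 7 mitochondrial subunits fell (median -1.96), 6 assembly factors fell and 2 rose, and 2 genes of the cycle fell (13.2% of all genes fell and 18.7% rose).

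Of 15 regulators of mitochondrial genes, 6 rose and 0 fell against the vehicle of batch 2, with a median of 0.55, where 23.2% of all genes rose. They were the coactivator Ppargc1a (1.17), the transcription factors Nrf1 (0.91) and Gabpa (1.00), the mitochondrial RNA and DNA polymerases Polrmt (0.55) and Polg (0.80), and Ppara (1.96), the receptor that drives fatty acid oxidation genes. Leaving out LBP replicate 2 gave 8 that rose and 1 that fell (31.3% and 25.4% of all genes). Against the vehicle of batch 1, 2 rose and 1 fell (median 0.11), where 18.7% of all genes rose. Between the vehicles, where 5.41% of all genes were higher and 6.76% lower, 1 regulator was higher and 5 lower in batch 2 than in batch 1, among them Esrra (-1.52) and Ppara (-1.51), and 8 assembly factors were higher and 1 lower. The counts for the regulators and for the lists before them were made with the exon length and GC trends left in. Over all genes, FSTL3 fold changes against the vehicle of batch 2 went with exon length (Spearman rho 0.458).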

How the data were processed

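Gene expression was measured by paired-end RNA sequencing of 23 liver libraries (KAPA Hyper-prep, 800 ng of total RNA, an Illumina HiSeq, per the labels). The authors deposited raw counts of reads for each gene. STAR 2.6.0c was used for alignment and GRCm38 as the genome, per the submitters' processing notes. Exons of Ensembl release 95 were counted with featureCounts 1.6.3, per the file headers, in a command with no option for strand, read pairs or reads of several places. All count columns were mapped to samples, 54723 of 54838 IDs were matched to symbols, and 82 members have the same coordinates in GENCODE M21.

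Genes were kept by filterByExpr, scaled by TMM and fitted in edgeR 4.0.16 (R 4.3.3, robust quasi-likelihood) with 1 mean for each group over the 23 libraries. Dispersion was 0.0774 in common, or 0.0298 over 12244 genes when LBP replicate 2 was left out. In each of 33 replicate pairs the counts differed beyond sampling noise, with a chi-square of at least 2.47 for each degree of freedom. The script was tested on simulated data: of genes changed 4-fold, 94% (EPDR1, 11205 genes), 95% (FCN2, 11154), 93% (FSTL3, 11213) and 85% (LBP, 11207) were called, and of those changed 2-fold 32%, 35%, 34% and 17%. Among unchanged genes 5, 5, 7 and 1 were called. The simulated libraries held no outlying library and no trend with GC content or exon length, so these rates need not hold for the real libraries.

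The members, lists and tests were chosen with earlier results of these data known. Members with values in every library are the 5 called members with the smallest p in each direction and comparison, a list of known subunits, and isoform families. Other settings were DESeq2 1.42.0, DESeq2 size factors, nuclear protein-coding genes alone, no filter, exon length, only the libraries compared, a replicate block and each library left out. Removal of GC trends was added after seeing the data. A p that did not pass does not show equal levels. Promoters come from RefSeq (GRCm38.p6).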

Additional observations from a re-analysis of the deposited data

Results flagged for a closer look

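In groups of 4, a library far from the other 3 was looked for in 165 groups, made of 32 genes and the members' summed share in each of 5 groups, and 7 were found; chance alone gives about 1 in 20 groups. FSTL3 replicate 4 had 12.8 CPM of Atp5l where the group began at 11.5 CPM, 34.7 CPM of Cox5a where the others were at 30.5 CPM, and 61.4 CPM of Ndufa9 where the group reached 72 CPM. FSTL3 replicate 1 had 120.0 CPM of Cox6b1, with the lowest of its group at 113 CPM, and EPDR1 replicate 1 had 270.0 CPM of Cox6b1, with the highest of its group at 318 CPM. EPDR1 replicate 4 had 53.7 CPM of Ndufb4, with the lowest of its group at 23.1 CPM. Vehicle of batch 2 replicate 2 had 75.5 CPM of Ndufb8, with the highest of its group at 88.8 CPM.

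Ndufb1-ps, which is annotated as a noncoding RNA and was therefore no member, had 13013 counts over the 23 libraries.

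The FSTL3 response and the LBP response, each against the vehicle of its batch, differed by edgeR's test of the difference for 50 members. All were lower for FSTL3, where 16.7% of all genes were lower and 14.9% higher. Without LBP replicate 2 the FSTL3 response was lower for 51 and higher for 1 (18.5% and 19.3% of all genes). Both vehicles enter this difference, and they differed themselves, with a median of 0.40 over the members for batch 2 against batch 1.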

How the results depend on the processing

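Counts of members called, in either direction, are given. For FSTL3 against the vehicle of batch 2, 36 became 16 with the exon length trend removed, 15 with GC and exon length trends removed, and 68 with only the libraries compared. For FSTL3 against the vehicle of batch 1, 16 became 10 with no filter, 6, 7 and 55 under those settings. Calls over all genes moved as well. Against the vehicle of batch 2, 16% were lower and 23.2% higher. Those became 12.2% and 14.9% without the length trend, and 14.3% and 15.4% without both trends. Against that of batch 1, 13.2% and 18.7% became 10.9% and 12.7%, and 8.51% and 9.52%. Against EPDR1 the FSTL3 count became 21 without the length trend and 23 without both trends, and against FCN2 20 without both trends and 62 with only the libraries compared. Over all genes, 18% lower and 24% higher against EPDR1 became 14.4% and 15.9%, and 16.2% and 16.4%. Against FCN2, 18.4% and 25.9% became 16.6% and 16.2% without both trends. For FCN2 against vehicle, 1 became 5 with DESeq2, 0 with no filter, 0 with the GC trend removed, 0 with both trends removed and 11 with only the libraries compared. Over all genes 0.652% were lower and 0.159% higher, and 0% were called with the GC trend or both trends removed. For LBP, 35 became 19 with DESeq2, 19 with no filter, 0 with the replicate block and 0 with only the libraries compared. Between the vehicles, 14 became 7 without both trends and 50 with only the libraries compared. Over all genes 6.76% lower and 5.41% higher became 1.74% and 2.09% without both trends. The difference between the FSTL3 and LBP responses gave 33 with DESeq2. The cause of these changes in count was not tested. Where no share over all genes is given, a shift in the members cannot be told from a shift over all genes. Cox6a1 in FSTL3 against the vehicle of batch 1 turned to 0.036 without both trends.

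Leaving out 1 library in turn gave 0 to 0 for EPDR1, 0 to 26 for FCN2, 31 to 63 for FSTL3 against the vehicle of batch 2, 0 to 40 for LBP, 10 to 53 for FSTL3 against the vehicle of batch 1 and 7 to 45 between the vehicles. It gave 37 to 64 for FSTL3 against EPDR1, 33 to 60 against FCN2, 0 to 11 for FCN2 against EPDR1 and 47 to 52 for the difference of responses. Leaving out LBP replicate 2 gave 26 for FCN2, 63 and 53 for FSTL3 against the vehicles of batch 2 and batch 1, 0 for LBP, 45 between the vehicles, 60 for FSTL3 against FCN2 and 11 for FCN2 against EPDR1. Over all genes, 10.1% were then lower and 8.81% higher for FCN2. For FSTL3 those shares were 25.4% and 31.3% against the vehicle of batch 2, and 23.4% and 26.5% against that of batch 1. They were 0.212% and 0.515% for LBP, and 15.4% and 14.9% between the vehicles. FSTL3 against FCN2 had 26.8% and 34%, and FCN2 against EPDR1 2.26% and 2.47%. The LBP count was 20, 21 and 23 without vehicle replicates 1, 3 and 4 of batch 1, and FSTL3 against that vehicle gave 10 without its replicate 3. Between the vehicles 7 and 9 were called without replicates 1 and 4 of batch 1, and 9 and 8 without replicates 3 and 4 of batch 2. The FCN2 call was lost without FCN2 replicate 1 or 4 or vehicle replicate 1 or 2 of batch 2. The replicate numbers were not taken as pairs: same-numbered libraries correlated over 0.1 in 9 of 35 pairs (-0.129 to 0.31) and in all pairs of no comparison, though in 3 of 4 for EPDR1 against vehicle and for FSTL3 against EPDR1.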
